A study of Schizosaccharomyces pombe with 49 samples.

Results

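The M-cell pheromone and receptor genes of the fission yeast Schizosaccharomyces pombe are 7 genes chosen by symbol: mfm1, mfm2, mfm3, mam1, mam2, mam3 and mam4. All 7 were found among the 7015 gene IDs common to the count tables of 46 RNA sequencing libraries. Another 2 libraries are represented by the authors' comparison tables, and 1 library (wild type mat1Msmt0 cells in YEA at 30C) was not analysed here. The libraries fall into 4 sets with counts, with 1 library per group except for 2 vegetative wild-type diploids.

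The first set holds 8 libraries of h90 cells, which switch mating type and so contain both M and P cells, grown in rich YEA medium at 30C. They are wild type, tor2-ts6 (a temperature-sensitive allele of the TORC1 kinase), and tor2-ts6 with ubi4Δ, cul4Δ or ddb1Δ, each with Pir1 or with pir1Δ. The second set follows pat1-as2 diploids at 26C, in which all strains carry an analogue-sensitive Pat1 kinase that 25 µM 1-NM-PP1 inhibits to start meiosis. It holds wild type (11 libraries), red1Δ (10) and pir1Δ (10), each vegetative in YEA, after 4 h in nitrogen-free EMM-N by the sample labels (the protocol gives 4 to 7 h), and at 1 to 8 h with the inhibitor in EMM. The third set holds 4 libraries of h90 cells expressing GFP-Pir1 in YEA at 30C, or GFP-Pir1, GFP-Pir1-SD or GFP-Pir1-SA in minimal EMM at 18C. The fourth holds 3 libraries at 29C of mat1Msmt0 cells, which do not switch and are M cells: wild type in EMM, and pir1Δ in YEA and in EMM. Pir1 and Red1 belong to the machinery that removes meiotic RNAs in growing cells. The labels do not say whether libraries came from separate cultures, so p-values measure only the spread between these libraries.

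M cells secrete M-factor, a short farnesylated and carboxyl-methylated peptide, and respond to P-factor made by P cells. The genes mfm1, mfm2 and mfm3 each encode an M-factor precursor. Mam4 is the methyltransferase that finishes the peptide, Mam1 is the ABC transporter that exports it, Mam2 is the receptor for P-factor, and Mam3 is the agglutinin that lets M cells adhere to P cells. Their transcription is known to need the starvation-induced regulator Ste11 and the M-specific protein Mat1-Mc.

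The stretches that encode mature M-factor are shown because the 3 pheromone genes have the same product, and mfm2 can be told from the others by its codons. They were read from the RefSeq genome ASM294v3, 5′ to 3′ on the gene's strand, and capitals mark the letters that differ among the genes (mfm1 chromosome I, plus strand; mfm2 I, minus; mfm3 II, plus).
mfm1: tatacCccCaaggttccttaCatgtgt
mfm2: tatacTccAaaggttccttaTatgtgt
mfm3: tatacCccCaaggttccttaCatgtgt
All 3 stretches of 27 bases encode the same peptide. Each of the 3 differing letters is the last of its codon, and mfm1 and mfm3 did not differ in this stretch. The longest identical run between the transcripts was 48 bases for mfm1 and mfm3, and 11 bases for mfm2 with either of the others. The sources used here do not state the read length, so some reads of mfm1 and mfm3 may not be assignable to one of them.

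Upstream stretches are shown because the 7 genes moved together in much of what follows. Those of mam3 and mam4, and a further match of mam1, are not printed. In the 250 bases before the annotated gene start, on either strand, CTTTGTT (a core of the Ste11 binding motif) was found in 7 of 7 genes and in 8.72% of 5112 protein-coding genes. The longer TTCTTTGTT, which contains it, was found in 3 of 7 genes (mfm1, mfm3 and, with 2 copies, mam4) and in 1.62% of all. ACAAT was found in 7 of 7 and in 65.0% of all. Capitals mark TTCTTTGTT where present, otherwise CTTTGTT, or its reverse complement.
mfm1: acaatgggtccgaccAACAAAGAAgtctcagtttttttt
mfm3: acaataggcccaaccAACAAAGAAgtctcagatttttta
mfm2: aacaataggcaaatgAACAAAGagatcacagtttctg
mam2: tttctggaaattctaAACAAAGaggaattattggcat
mam1: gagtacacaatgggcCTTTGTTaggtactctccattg
These matches are letters only and do not show binding.

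Levels are given as CPM, reads on the gene's own strand per 1000000 such reads over all genes. Such reads numbered 10157616 to 68985445 per library. Of the deleted genes, iss10, which encodes Pir1, stood at 0.662 to 17.0 CPM in 15 pir1Δ libraries and 19.5 to 145 in the other 31, and red1 at 0.546 to 1.92 in 10 red1Δ libraries and 40.8 to 199 elsewhere. The highest pir1Δ value, 17.0, was in tor2-ts6 cul4Δ pir1Δ. The ddb1 level was 8.00 and 8.32 CPM in the ddb1Δ libraries and 95.1 to 290.2 elsewhere, and that of ubi4 41.2 and 47.5 in the ubi4Δ libraries and 100.5 to 1351 elsewhere. Sense reads of cul4 were not lower in the cul4Δ libraries (92.7 and 75.1 CPM, beside 43.2 to 133.9 elsewhere). In the column without strand, which leaves out reads that overlap other features, those libraries had 14 and 39 cul4 reads, beside 756 in tor2-ts6. The M cassette genes mat1-Mc, mat1-Mi, mat3-Mc and mat3-Mi are listed at 0 reads in all 46 libraries. In the mat1Msmt0 libraries the P-factor gene map2 stood at 3.28 to 4.58 CPM, with at least 97.1% of its reads on the opposite strand, beside 2093 CPM in tor2-ts6 h90 cells. Not every P-cell gene was that low there. The map1 level was 32.8 CPM in wild type and 34.6 in pir1Δ in EMM, and 2.71 in pir1Δ in YEA, beside 66.8 in tor2-ts6 h90 cells.

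In rich medium, wild-type h90 cells had few reads of the pheromone and receptor genes, and tor2-ts6 cells had many. Wild type had 7 reads of mfm1 (0.4997 CPM), and tor2-ts6 had 15539 (1340.0 CPM). For mfm3 it was 0.428 CPM (6 reads) against 714, and for mfm2 7.50 against 468. All 3 pheromone genes were therefore far apart between these libraries, with mfm2 starting from the highest level.

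The receptor gene mam2 differed in the same way, at 3.57 and 1023.5 CPM. The agglutinin gene mam3 went from 18.4 to 1495 CPM between the same libraries, the exporter gene mam1 from 67.2 to 1300.3 and the methyltransferase gene mam4 from 31.8 to 162. The log2 ratios, on TMM-scaled CPM with a prior count of 2, were 10.62 for mfm1, 9.88 for mfm3, 7.68 for mam2, 5.90 for mam3, 5.51 for mfm2, 3.84 for mam1 and 1.92 for mam4. All 7 lay at 1 or above, where 16.6% of all genes did. There is 1 library of each strain, so these ratios have no replicate check. Markers of P cells moved too: 4 of 5 of the list map1, map2, map3, map4 and sxa1 were higher by 1 or more, and in bulk RNA more cells of a type and more RNA per cell cannot be told apart.

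Per kilobase of transcript the order of the genes was also different. In tor2-ts6 it was mfm1 (3073 CPM per kb), mfm3 (2644), mfm2 (1048), mam2 (829), mam3 (388), mam1 (319) and mam4 (138). In wild type mam4 was highest (26.97 CPM per kb), followed by mfm2 (16.8), mam1 (16.5), mam3 (4.78), mam2 (2.89), mfm3 (1.59) and mfm1 (1.15). Neighbours such as mfm2 and mam1 in wild type rest on single libraries and cannot be ordered beyond counting error.

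**Figure D1:**
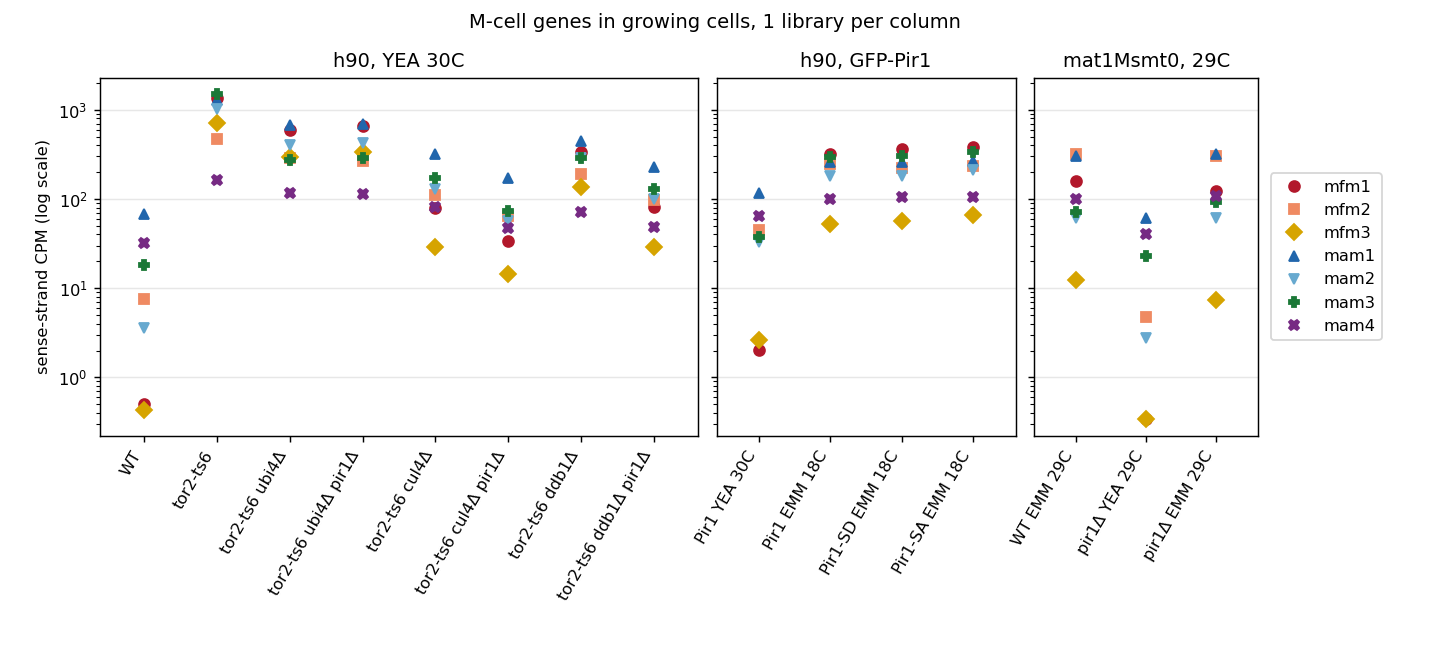
Sense-strand CPM (log scale) of the 7 genes in each growing culture, with 1 library per column and 1 symbol per gene. All genes were higher in tor2-ts6 than in wild type h90 cells, from 162 CPM for mam4 to 1495 for mam3, and lower again with cul4Δ.

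Loss of the ubiquitin gene ubi4, of the ligase scaffold gene cul4 or of its adaptor gene ddb1 went with lower levels of the 7 genes than in tor2-ts6 alone. The mfm1 level was 591 CPM with ubi4Δ, 78.6 with cul4Δ and 333 with ddb1Δ, beside 1340.0 in tor2-ts6. For mam2 the same strains stood at 398, 131 and 292 CPM, beside 1023.5, and for mam3 at 275, 171 and 287, beside 1495. In each of these genes all 3 deletion libraries lay below tor2-ts6 and above wild type.

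By log2 ratio to tor2-ts6, ubi4Δ had 4 of 7 genes lower by 1 or more (8.29% of all genes), cul4Δ 7 of 7 (6.62%) and ddb1Δ 7 of 7 (2.45%). The cul4Δ ratios ran from -1.25 (mam4) to -4.84 (mfm3). In the fit over 8 libraries the differences ran from -0.91 ± 0.58 (log2 ± SE; mam4) to -2.66 ± 0.70 (mam3). None of the 7 passed by edgeR's quasi-likelihood test (adjusted p = 0.622 for mam3 and 0.991 for the others), and 0% of 6404 genes did. At an unadjusted p under 0.05, 1 of 7 (mam3) and 252 of all genes lay, and DESeq2 called 59 genes including mam3 (-2.67, adjusted p = 0.0318). The lone tor2-ts6 and wild-type libraries are assumed to vary like the other groups.

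Against the single wild-type library, which has no spread of its own, the deletion strains differed by 1.00 ± 0.65 (mam4) to 8.92 ± 3.02 (mfm1) on the log2 scale. By edgeR 0 of 7 passed (adjusted p = 0.0656 to 0.341; 12% of all genes passed), with 5 of 7 at an unadjusted p under 0.05. DESeq2 called 6, all but mam4, and edgeR with total-count scaling called 3 (mfm2, mam2 and mam3). Both comparisons use the same deletion libraries. By edgeR the pheromone signalling list had 4 of 11 genes higher against wild type, among them the MAP kinase gene spk1 (5.22 ± 0.90, adjusted p = 0.0239), and ste11 differed by 3.64 ± 0.70 (0.0259).

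Where pir1 was deleted as well, the 7 genes were lower with cul4Δ and ddb1Δ but close to level with ubi4Δ. With ddb1Δ the mfm1 level was 333 CPM with Pir1 and 82.0 without, and that of mfm3 was 135 and 29.0. With cul4Δ mfm1 stood at 78.6 and 33.4 CPM, and with ubi4Δ at 591 and 665. The ratios at 1 or beyond numbered 4 of 7 lower for ddb1Δ (0.375% of all genes), 3 of 7 lower for cul4Δ (1.38%) and 0 of 7 in either direction for ubi4Δ (1.21%). In the fit over the 3 pairs all 7 estimates lay below 0, from -0.42 ± 0.14 (mam4) to -1.002 ± 0.42 (mfm1). By edgeR 0 of 7 passed (adjusted p = 0.571 to 0.646), 0.426% of all genes passed, 5 of 7 had an unadjusted p under 0.05, and DESeq2 called 0 of 7. The difference between the deletions was not tested.

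Over the 5 vegetative backgrounds with and without Pir1 (these 3, mat1Msmt0 cells in EMM and vegetative diploids), the 7 estimates ran from -0.30 ± 0.57 (mfm3) to 0.07 ± 0.35 (mam1). Of the 7, 0 passed by edgeR (adjusted p = 0.963 to 0.996), by DESeq2 or at an unadjusted p under 0.05, and 0.436% of all genes passed. For mfm1 the 95% interval ran from -1.33 to 1.17.

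The backgrounds did not point the same way. In vegetative diploids mfm1 stood at 9.59 and 1.13 CPM in the wild-type libraries and at 19.1 in pir1Δ. The mam1 level was 140.2 and 96.0 CPM in wild type and 297 in pir1Δ, and the mam2 level 28.7 and 8.82 against 51.2. The pir1Δ library was the highest of these 3 for all 7 genes. Against wild-type library 1, 5 of 7 were higher by 1 or more (8.62% of all genes), which fell to 1 of 7 with total-count scaling. Against library 2, 6 of 7 were (4.44%). The wild-type libraries themselves stood apart, with 3 of 7 (mfm1, mfm3 and mam2) higher by 1 or more in library 1 than in library 2 (11.1% of all genes). On the strand opposite mfm2, library 1 had 6.64% of the reads of both strands, while library 2 had 0% and pir1Δ 0.0217%.

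In mat1Msmt0 cells in EMM, the M-cell genes were expressed at levels that differed little with and without Pir1. The mfm2 level was 320 CPM in wild type and 302 in pir1Δ, that of mfm1 160 and 122, and that of mam1 307 and 317. Of 7 ratios 0 reached 1 in either direction (1.56% of all genes), and the lowest was -0.86 for mfm3, at 12.5 and 7.29 CPM. In YEA the pir1Δ cells had 4 reads each of mfm1 and mfm3 and 56 of mfm2. Between media, 7 of 7 genes were higher by 1 or more in EMM (5.15% of all genes), from 1.22 (mam4) to 7.97 (mfm1). The P-cell genes did this in 1 of 5. The M-cell carboxypeptidase gene sxa2, which is not among the 7, did not, at 14.6 CPM in YEA and 19.3 in EMM.

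In mat1Msmt0 cells in YEA at 30C, the authors' deposited table for tor2-ts6 gives log2 folds of 7.38 for mfm1, 4.50 for mam2, 4.48 for mfm3, 4.36 for mfm2, 4.10 for mam3, 2.61 for mam1 and 0.60 for mam4. There, in the authors' deposited table, 6 of 7 genes have q under 0.05 and a fold of 1 or more (23.2% of all genes). By the same limits 2 of 5 P-cell markers are higher (map1 at 3.54 and map4 at 2.51) and 1 is lower (map2 at -1.29). The M-cell gene sxa2 is at 0.27 there and is not past both limits. The authors' deposited table for pir1Δ gives 1.498 for mam3, and 1.42 for mfm1 with q = 0.143. In that one of the authors' deposited tables only mam3 of the 7 genes is past both limits, where 6.68% of all genes are, and mam1 is at -0.33. The column that each fold was taken against names no sample and may be the same in both tables. The number of replicates behind them is not stated.

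In h90 cells with GFP-Pir1, growth in EMM at 18C went with higher levels than growth in YEA at 30C. The mfm1 level was 2.04 CPM in YEA and 322 in EMM, that of mfm2 44.6 and 244, and that of mam3 37.9 and 294. By ratio 5 of 7 were higher by 1 or more (11.6% of all genes), with mam1 at 0.92 and mam4 at 0.41. Medium and temperature differ together between these libraries and cannot be told apart.

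The SD and SA variants of Pir1 had levels close to GFP-Pir1 at 18C. For mfm1 they were 322 CPM with GFP-Pir1, 364 with SD and 387 with SA. For mam2 they were 180.4, 183 and 209.8 in that order. The ratios to GFP-Pir1 ran from -0.04 to 0.26 for SD and from -0.01 to 0.38 for SA, so 0 of 7 reached 1 (3.93% and 0.809% of all genes). Between SD and SA they ran from -0.17 to 0.06, with 0 of 7 at 1 or beyond (2.95% of all genes).

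The 3 pheromone genes did not contribute equally. In cells growing in YEA without tor2-ts6, mfm2 gave most of the reads. Its share of the reads of the 3 genes was 89.0% in wild-type h90 cells (95% Wilson interval 82.1 to 93.4, 118 reads), 90.5% with GFP-Pir1 in YEA (88.8 to 92.04) and 87.5% in mat1Msmt0 pir1Δ in YEA (77.2 to 93.5, 64 reads). In vegetative wild-type diploids it was 87.2% and 95.2%. The mfm2 share differed at like totals of the 3 genes. It was 87.2% in vegetative wild-type diploid library 1 (111 CPM) and 23.2% in wild type at 8 h (126 CPM). At 5 h it was 36.9% (79.8 CPM). In the libraries with the lowest totals, 5.42 to 49.3 CPM, it was 77.8 to 95.2%. Whether the share follows the total was not tested.

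In tor2-ts6 the mfm2 share was 18.6% (18.1 to 19.0) and mfm1 had 53.1%. Starved wild-type diploids were alike, with 20.3% for mfm2, 54.2% for mfm1 and 25.5% for mfm3. The mat1Msmt0 cells in EMM kept mfm2 as the main gene at 64.9% in wild type and 69.9% in pir1Δ, with mfm3 at 2.54% and 1.69%. Within the tor2-ts6 strains, cul4Δ had 50.9% mfm2 and ubi4Δ 24.3%. These intervals cover counting error only.

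**Figure D2:**
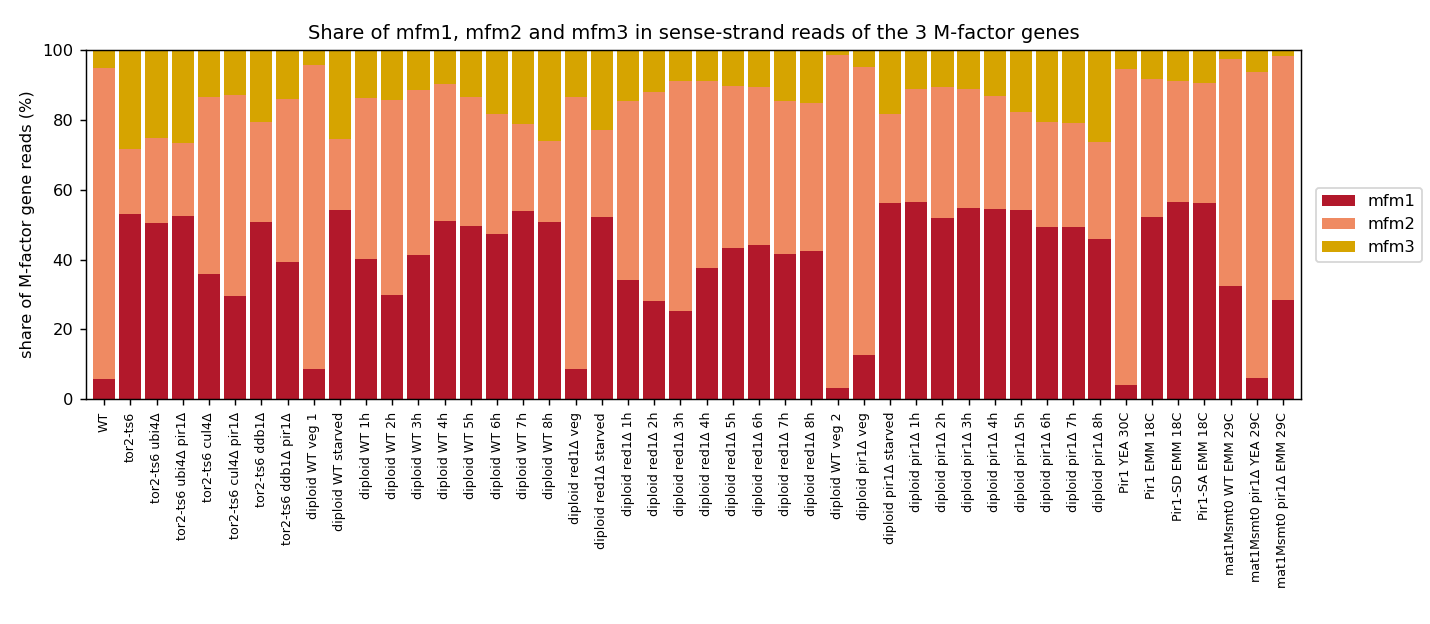
Share (%) of mfm1, mfm2 and mfm3 in the sense-strand reads of the 3 M-factor genes, with 1 bar per library. The mfm2 share was 89.0% in wild-type h90 cells and 18.6% in tor2-ts6, and 87.2% in vegetative wild-type diploids (library 1) and 20.3% after starvation.

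In starved diploids 6 of the 7 genes were higher than in vegetative ones. The vegetative cells were in rich YEA and the starved ones in minimal EMM-N, so medium and nitrogen cannot be told apart. The mfm1 level rose from 9.59 and 1.13 CPM in vegetative wild type to 2142 when starved, from 2.61 to 475 in red1Δ and from 19.1 to 294 in pir1Δ. For mam2 the steps were from 28.7 and 8.82 to 3192 CPM, from 13.3 to 559.7 and from 51.2 to 283. For mam4 they were from 72.2 and 42.8 to 476 CPM, from 38.7 to 85.8, and from 101 down to 49.0 in pir1Δ. The starved library was above the vegetative ones in every strain for mfm1 and mam2, and in wild type and red1Δ only for mam4.

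The fitted rises were 6.72 ± 0.65 for mfm1 (106-fold, adjusted p = 4.4e-09), 6.34 ± 0.66 for mfm3 (1.25e-08), 5.10 ± 0.63 for mam2 (2.18e-07), 3.91 ± 0.35 for mam3 (1.46e-09), 2.76 ± 0.48 for mam1 (4.42e-05) and 2.03 ± 0.44 for mfm2 (0.000555), by edgeR. For mam4 the difference was 1.13 ± 0.53 (adjusted p = 0.0869), and it passed with total-count scaling (1.56, 0.0299) and without pir1Δ (2.02, 0.0156). Of all genes 19.8% rose. The fit took its spread mainly from the strains and from the hours within a meiotic phase. The p-values of this and the later steps therefore do not measure repeat cultures. Without wild type, mfm2 (0.91, adjusted p = 0.186) and mam1 (1.11, 0.0713) no longer passed and mam4 was at -0.47. Leaving out a strain or a library, 4 to 7 of the 7 genes rose, and the mfm1 difference ran from 5.27 to 7.90.

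Other mating genes rose with them. The M-cell carboxypeptidase gene sxa2, whose product degrades P-factor, rose by 4.58 ± 0.53 (adjusted p = 8.89e-08). Of 5 P-cell markers 4 rose, led by map2 (5.00 ± 0.78, 8.82e-06). Of 11 pheromone signalling genes 8 rose, among them spk1 (3.95 ± 0.58, 4.09e-06). The M-factor processing list, which includes mam4, had 3 of 5 higher: rce1, a CAAX protease gene, by 1.59 ± 0.18 (7.98e-08), and the farnesyltransferase subunit genes cwp1 (1.25 ± 0.29, 0.00117) and cpp1 (0.81 ± 0.17, 0.000509). Its protease gene ste24 fell by 0.43 ± 0.17 (0.045).

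**Figure D3:**
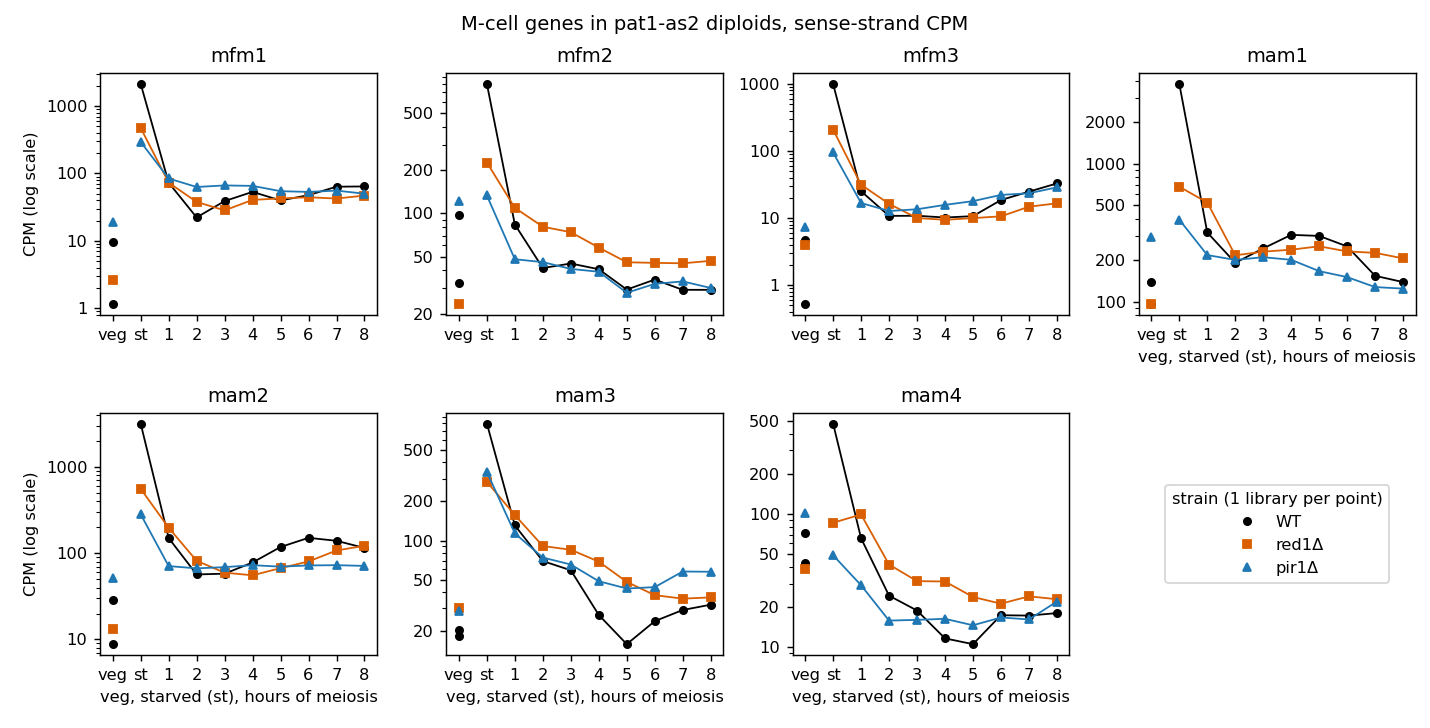
Sense-strand CPM (log scale) of each gene in vegetative (veg), starved (st) and meiotic (1 to 8 h) pat1-as2 diploids of 3 strains, with 1 library per point. The starved wild-type library is the highest in every panel, for example 2142 CPM for mfm1, and levels at 1 h are lower, at 72.9 CPM.

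At 1 h the levels were lower in wild type than in starved cells. The medium changed from EMM-N to EMM when the inhibitor was added, so medium and Pat1 inhibition cannot be told apart. The mfm1 level was 72.9 CPM at 1 h and 22.2 at 2 h, and then 38.9 to 64.1 up to 8 h. That of mam1 fell to 318 CPM at 1 h from 3786, and that of mam3 from 798 to 131, reaching 15.9 at 5 h. In red1Δ mam4 was higher at 1 h (98.99 CPM) than when starved (85.8).

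All 7 genes were lower at 1 to 3 h than in starved cells, by -2.20 ± 0.27 (mam3) to -4.39 ± 0.45 (mfm3) in log2, with adjusted p between 1.18e-07 (mfm3) and 0.000899 (mam4) by edgeR. Of all genes 5.67% fell. Without wild type mam1 (-0.86, adjusted p = 0.13) and mam4 (-0.75, 0.277) no longer passed. This comparison and the one before share the starved libraries, so the sizes of the rise and the fall are not independent.

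From 1 to 3 h to 4 to 6 h, 1 of 7 passed, mam3, which fell by 0.84 ± 0.21 (adjusted p = 0.00219), where 43.7% of all genes passed. From 4 to 6 h to 7 to 8 h, 0 of 7 passed by edgeR (0.137% of all genes) or DESeq2, and 1 of 7, mfm3, had an unadjusted p under 0.05. Its difference was 0.97 ± 0.37 (adjusted p = 0.0879), and its wild-type level was 10.7 CPM at 5 h and 32.9 at 8 h. Over the 8 meiotic hours the median of mfm3 was 14.7 CPM in wild type, 12.7 in red1Δ and 17.3 in pir1Δ.

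**Figure D4:**
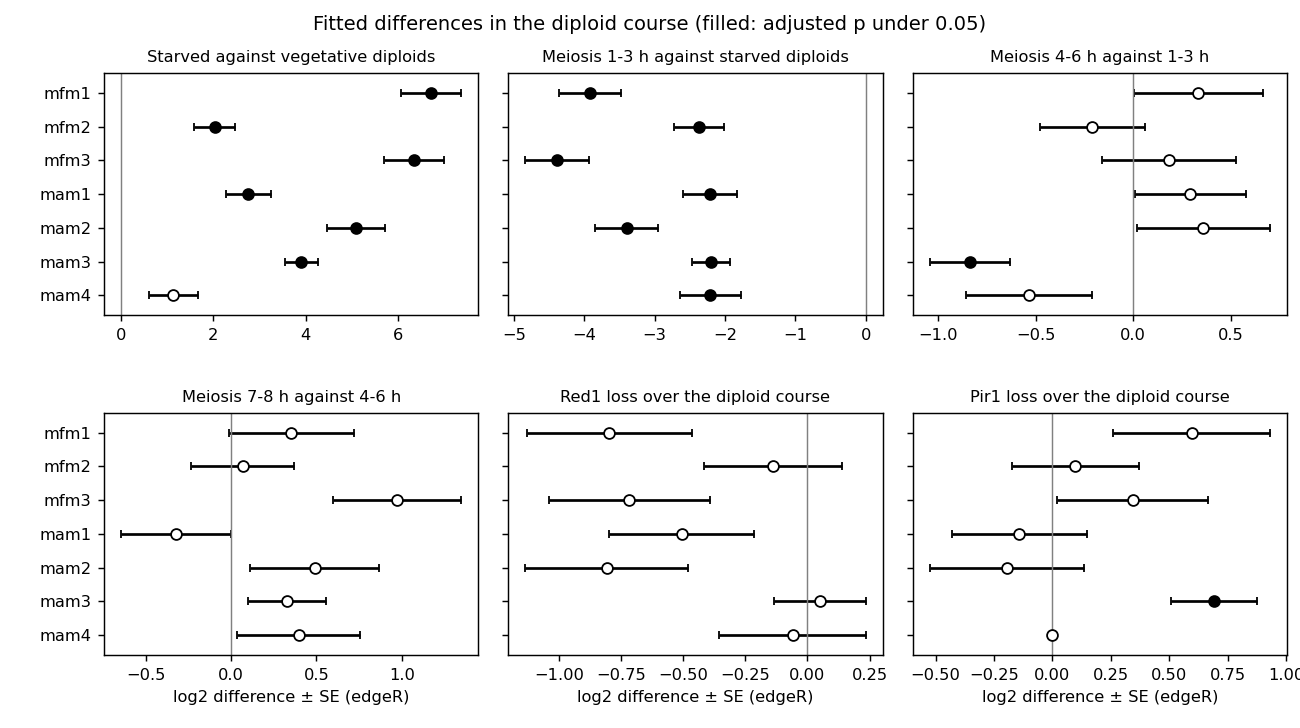
Differences of the 7 genes (log2 ± SE, edgeR) for 4 steps of the diploid course and for loss of Red1 or Pir1 over it, with filled points at adjusted p under 0.05. In the starvation panel 6 of 7 points are filled and in the step to 1 to 3 h 7 of 7. The mam4 value for Pir1 is drawn without an error because its estimate is close to 0.00.

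Averaged over the stages, the strain estimates lay between -0.81 and 0.69, but within the starved stage the strains were further apart, with mam2 at 3192 CPM in wild type and 283 in pir1Δ. With the stage as a covariate, loss of Red1 gave estimates of -0.81 ± 0.33 for mam2 (adjusted p = 0.0675) and -0.80 ± 0.33 for mfm1 (0.0757). By edgeR 0 of 7 passed, where 29% of all genes did, 3 of 7 had an unadjusted p under 0.05, and DESeq2 called 1, mam2. Without the vegetative stage mfm1 (-0.83), mfm3 (-0.88) and mam2 (-0.89) passed, with adjusted p of 0.0326, 0.035 and 0.028. Loss of Pir1 gave 1 of 7, mam3, higher by 0.69 ± 0.18 (0.0038), where 48.3% of all genes passed. The M-cell gene sxa2, which is not among the 7, passed as lower on loss of Red1 and on loss of Pir1. The mam3 medians over the meiotic hours were 30.5 CPM in wild type (15.9 to 131), 57.5 in pir1Δ (42.6 to 113) and 58.3 in red1Δ (35.6 to 157). These medians are not TMM-scaled, unlike the fits, in which mam3 was at 0.05 ± 0.18 on loss of Red1. With total-count scaling the mam3 difference of pir1Δ from wild type was 0.41 (0.11), and in the column without strand 0.24 (0.321).

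Red1 loss against Pir1 loss gave 3 of 7 lower in red1Δ, namely mfm1 (-1.39 ± 0.34, adjusted p = 0.00155), mfm3 (-1.06 ± 0.33, 0.00931) and mam3 (-0.64 ± 0.19, 0.0057), where 54.2% of all genes passed. With total-count scaling 0 of 7 passed, with mam3 at 0.02, and in the column without strand 0 of the 6 genes with a value. The opposite-strand share did not follow the strain alone, as vegetative wild-type library 2 lay on the side of pir1Δ. At mfm2 it was 5.15 to 15.02% in the 20 libraries of red1Δ and of wild type without vegetative library 2, and 0 to 1.38% in the other 26. At mam3 it was 18.8 to 34.7% in those 20 libraries and 1.17 to 2.66% in the meiotic hours of pir1Δ. Apart from vegetative wild-type library 2, the differences of pir1Δ from wild type and from red1Δ coincide with this split of the libraries. They cannot be told apart from it. The part of the opposite-strand share in the strain differences was not tested.

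The strain differences depended on the phase (vegetative, starved, 1 to 3, 4 to 6 and 7 to 8 h) for 4 of 7 genes, where 7.79% of all genes passed the F test of edgeR. They were mfm2 and mam1 (both adjusted p = 0.0018), mam2 (0.026) and mam4 (0.0315). In vegetative cells mam1 was highest in pir1Δ at 297 CPM. When starved it was highest in wild type at 3786 CPM, beside 682 in red1Δ and 394 in pir1Δ. The starved phase holds 1 library per strain, as does the vegetative phase apart from wild type. The spread in this test therefore comes from hours within a meiotic phase and from the vegetative wild types. A strain effect in vegetative or starved cells cannot be told apart from 1 unusual library.

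Reads on the opposite strand were a large part of the signal at several loci when the genes were low. At mam2 they were 87.7% of the reads of both strands in wild-type h90 cells and 4.00% in tor2-ts6. At mfm3 they were 90.9% (60 of 66 reads) and 0.576%. At mam4 in the wild-type course they were 6.03% when starved and 75.3% at 5 h. The sense level of mam4 was then 10.6 CPM, its lowest of 46 libraries. Such a share also rises when sense reads alone fall, so it does not show more opposite-strand RNA. In the counts without strand, mfm3 is at 0 reads in all libraries.

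**Figure D5:**
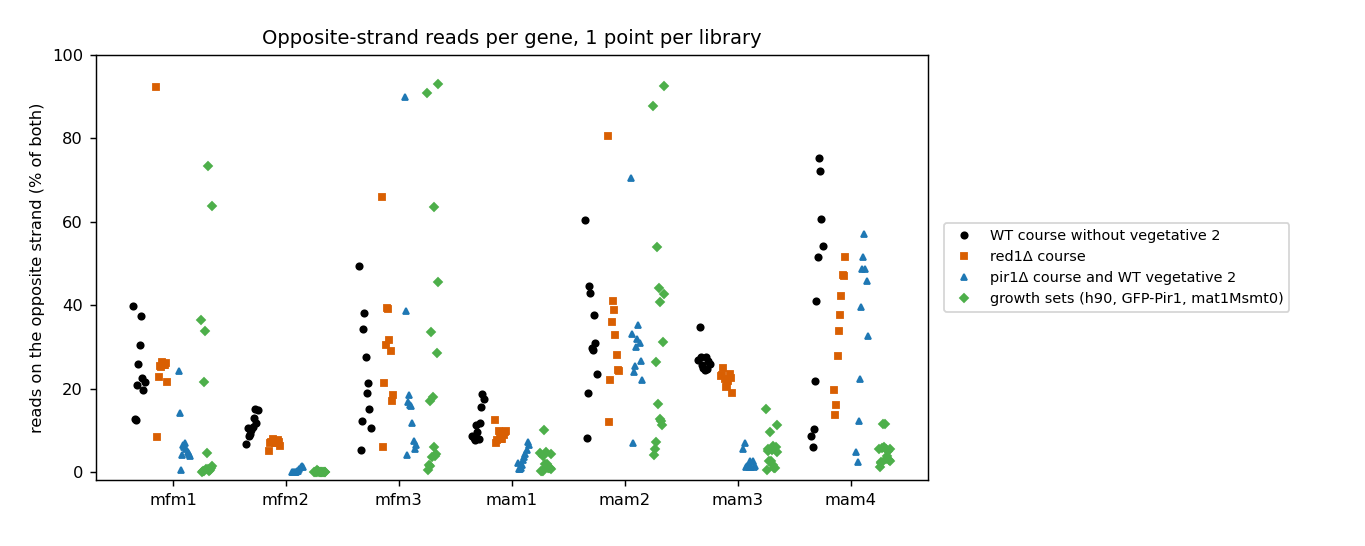
Reads on the strand opposite each gene, as a percentage of the reads of both strands, with 1 point per library. Symbols separate the wild-type course without vegetative library 2, the red1Δ course, the pir1Δ course with that library, and the growing cultures. At mfm2 the first 2 sets lie at 5.15 to 15.02%, and all others at 1.38% or below.

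Across the 46 libraries the 7 genes varied together, as a description over libraries that share strains and sets. Pearson's r of log2(CPM + 1) was 0.95 for mfm3 with mam2 and 0.93 for mfm1 with mfm3, and lowest for mam2 with mam4, at 0.45. Of the genes of like pattern to the mean of the 7, dni2 had r = 0.93, rgs1 (a regulator of the pheromone-responsive G protein) 0.92 and spk1 0.90. The next were gpa1, the G protein alpha subunit gene (0.89), ste7 (0.88) and ppk33 (0.87). For mam4 alone they were sgp1 (0.89) and cdt1 (0.88).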

How the data were processed

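RNA sequencing counts of 46 libraries were used, and 1 further library was not analysed here. The submitters' processing notes name Trimmomatic and STAR. No source used here names the genome build. The deposited count tables hold whole-number counts per gene without strand and for each strand, as STAR writes them. The larger strand column was used in every library (at least 2.19 times the other), a choice made after values were seen, because the column without strand holds 0 reads of mfm3. The authors' tables give log2 fold changes and q-values made before deposit, by a method not stated, and 4 value columns in them were not used. Of 7015 IDs, 97.6% matched RefSeq ASM294v3, from which names, lengths and sequences were taken.

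Genes were tested with edgeR 4.0.16 in R 4.3.3 (TMM scaling, quasi-likelihood test, Benjamini-Hochberg adjustment over all genes, threshold 0.05). Covariates were background, deletion, stage or strain. The single-library ratios used a prior count of 2, over genes that reached 50 reads in one of the libraries. The alternatives were DESeq2 1.42.0, total-count scaling, no filter, the other column and leaving out libraries, stages or strains. The statistics were tested on simulated data. All 7 genes are named throughout, and other genes by the size of their difference within a list or by Pearson's r. The members and lists were chosen with earlier results of these data known. Intervals and depth cover counting error only.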

Additional observations from a re-analysis of the deposited data

Results flagged for a closer look

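The difference between the wild-type, red1Δ and pir1Δ diploids depended on the phase of the course for 4 of the 7 genes by the F test of edgeR. The adjusted p was 0.0018 for mfm2, 0.0018 for mam1, 0.026 for mam2 and 0.0315 for mam4. For mam2 the vegetative levels were 28.7 and 8.82 CPM in wild type, 13.3 in red1Δ and 51.2 in pir1Δ, and the starved levels were 3192, 559.7 and 283 CPM. The vegetative and starved phases rest on 1 library per strain, apart from the vegetative wild type. A strain effect in those phases cannot be told apart from 1 unusual library.

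Reads on the strand opposite mfm1 lie outside the sense-strand levels. In vegetative red1Δ diploids they were 92.1% of the reads of both strands, 1020 against 87 sense reads. The share was 39.8% and 24.1% in the vegetative wild-type libraries and 14.2% in vegetative pir1Δ. There is 1 such red1Δ library.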

How the results depend on the processing

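Over the alternatives, 380 summary values and 975 single-gene values kept their direction and side of the threshold or stayed within the spread allowed. Another 24 and 28 newly passed the threshold or grew in count, 19 and 10 no longer passed or shrank, 5 and 78 untested values moved further, and 1 single-gene value reversed. Using the strand column in every library equals the values reported. The alternatives limited to meiotic hours, or to the column without strand in the diploids alone, were chosen after seeing the data. The column without strand gives no value for mfm3. Libraries could not be paired by replicate number, because the groups compared share only the number 1 and only vegetative wild type has a second library. Libraries with and without Pir1 were instead matched by background or deletion, and the diploid strains by stage. Stage, strain, deletion and background entered the fits as covariates.

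For genes of all kinds, Pir1 loss in 5 backgrounds had 28 calls, 75 with DESeq2, 13 with total-count scaling and 9 to 60 on leaving libraries out. In the 3 tor2-ts6 strains it had 27, 82 with DESeq2 and 0 to 35 on leaving out a pair. The deletions against tor2-ts6 had 0, and 59 with DESeq2. Against wild type they had 770, 1592 with DESeq2, 1191 with total-count scaling and 171 to 638 without 1 library. From 4 to 6 h to 7 to 8 h there were 9, 941 with DESeq2, 16 with no filter, 1288 with total-count scaling, 122 without strand and 0 to 291 without 1 strain. The interaction had 517, and 1955 with DESeq2. Without 1 strain, starvation had 746 to 1195 higher (1301 with all), 1 to 3 h had 112 to 460 lower (373) and 4 to 6 h had 1418 to 2632 (2877).

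Among the 7 genes, deletions against tor2-ts6 had 1 lower with DESeq2, and against wild type 6 higher with DESeq2 and 3 with total-count scaling. Red1 loss had 1 lower with DESeq2, 1 without strand, 3 in meiotic hours and 0 to 3 without 1 stage. Pir1 loss had 0 higher with total-count scaling, 0 without strand, 2 in meiotic hours and 1 to 3 without 1 stage. Red1 against Pir1 loss had 0 lower with total-count scaling and 0 without strand, and mam3 reversed to 0.022 with total-count scaling (adjusted p = 0.932). The step to 4 to 6 h had 2 lower with total-count scaling, and the interaction had 7 with DESeq2. Without strand, cul4Δ pir1Δ had 1 lower, ddb1Δ pir1Δ 2 lower, vegetative pir1Δ against wild type 1 had 2 higher (1 with total-count scaling) and wild type 1 against 2 had 1 higher. The cause was not tested. Total-count scaling shifted the median of all genes by -0.47 (4 to 6 h) to 0.66 (Red1 against Pir1 loss).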
